A study of Mus musculus with 65 samples.

Results

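Outer hair cells are the sensory cells of the cochlea that shorten and lengthen with voltage and so amplify sound-driven vibration, while inner hair cells pass most of the signal to the auditory nerve. Their side wall is packed with prestin, the membrane motor protein encoded by Slc26a5. Deflection of the hair bundle opens a mechanotransduction channel at its tips, the calcium that enters is bound by very abundant buffer proteins, and cholinergic fibres from the brainstem contact the cell base and open calcium-activated potassium channels. These properties mature in the mouse during the weeks after birth.

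The cells described here are the 48 wild-type outer hair cells collected at postnatal day 10, chosen by their titles from a deposited table of 65 cells; the other 17 lack the transcription factor gene Casz1 and were not used. The wild-type mice were Slc26a5FlpO/+; Rosa26FSF-H2BEGFP/+, in which the prestin gene drives the Flp recombinase FlpO and so turns on a green fluorescent histone that marks the nucleus, and they carried no Cre. Cochleae were dissociated with enzymes, and single cells were picked by hand and each turned into full-length cDNA without molecular identifiers. The titles and the design text call the cells outer hair cells, whereas the protocol text speaks of picked IHCs and iOHCs, and the titles were followed. Since the reporter depends on Slc26a5, presence of that transcript was favoured in advance. The labels name no animal, so the 48 cells count as 1 sample, spread is given between cells, and no test between cells was made.

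The cells held between 7458126 and 17107710 counts each, with a median of 11520603, and between 5426 and 8945 genes with a count. At the median total, 1 count was worth 0.0868 CPM (counts per 1000000 counts of the cell), the unit used for levels below. Mitochondrially encoded genes took 4.19 to 10.2% of counts. Cells numbered 12 to 24 differed in their medians, while their ranges overlapped those of cells 25 to 45. Their totals were 7.46e+06 to 9.84e+06. Their median of genes counted was 6659 against 7807 in cells 1 to 11, 7681 in cells 25 to 45 and 7483 in cells 46 to 48. The first principal component held 5.26% of the variance, and their median on it was 75.2 (2.70 to 149.98). That median was -13.4 (-37.1 to 19.7) in cells 1 to 11 and -36.9 (-73.7 to 16.5) in cells 25 to 45. These runs of cell numbers were set after values were seen, and no label calls them batches. Xist reached 10 counts without Y-linked transcripts doing so in 9 cells, 8 of them among cells 1 to 11, and Y-linked transcripts reached 10 counts without Xist in 37, so female and male patterns were both present. Correlations of log2(CPM + 1) between cells ran from 0.59 to 0.73 over 1128 pairs, and no pair of columns was identical.

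All 8 outer hair cell markers were counted in 48 of 48 cells, a share of 100% whose exact 95% binomial interval reaches down to 92.6%. The interval treats cells as independent draws and covers counting error only, not differences between animals. Ocm, which encodes the calcium buffer oncomodulin (chromosome 5, 144019804 to 144026670, minus strand, mm10 coordinates of GENCODE M21), had a mean of 36551 CPM, with 12218 CPM in the lowest cell, 36708 in the median and 61361 in the highest. Car7, a carbonic anhydrase gene, averaged 2464 CPM (1343, 2436 and 3972 in the lowest, median and highest cell). Both markers were therefore high in every cell, and Car7 had the narrower spread of the pair. Lmod3, a leiomodin gene of the actin filament family, averaged 1986 CPM and ranged from 597 to 3707. Aqp11, an aquaporin gene, averaged 1536 CPM with a range of 599 to 2878, and Strip2 averaged 1416 CPM with a range of 487 to 2810.3. Pou4f3, the POU-domain transcription factor needed for hair cell survival, averaged 979 CPM and ranged from 237 to 2021.

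By CV (SD over mean), Slc26a5 and Ikzf2 were the most uneven of the 8 markers, at 0.639 and 0.629. Set against the log2 CV of genes of like level, as described below, Slc26a5 was 0.733 above, Pou4f3 0.151 and Ikzf2 0.134. Slc26a5 (chromosome 5, 21810655 to 21865604, minus strand) averaged 866 CPM, with 54.8 in the lowest cell, 650.1 in the median and 2269 in the highest. Its level differed between runs of cells: the 11 cells numbered 1 to 11 held 1238 to 2269 CPM, the 13 cells numbered 12 to 24 held 54.8 to 685, cells 25 to 45 held 140.4 to 1505 and the 3 cells numbered 46 to 48 held 1135 to 1572. Cells 1 to 11 did not overlap cells 12 to 24, whereas they overlapped cells 46 to 48. They overlapped cells 25 to 45 through cell 42 alone, since the next highest of that run, cell 28, held 998 CPM. Among cells 1 to 11, the 3 with Y-linked transcripts held 1249 to 2187 CPM and the 8 with Xist held 1238 to 2269, so these ranges overlapped. The part of depth and of the Xist pattern in this difference was not tested, and the share of all genes without overlap between these runs is not given here. Ikzf2, the zinc-finger factor Helios that outer hair cells require for their mature gene programme, averaged 306 CPM and ranged from 6.51 to 881; its exons overlap those of the opposite-strand gene Gm29114, and with no strand setting known for the counts, reads of this pair cannot be told apart there. Rank correlations between the 28 pairs of markers over 48 cells ran from -0.41 to 0.37 with a median of -0.01. Slc26a5 and Ocm had a rho of 0.27 over 48 cells and -0.11 over the 34 cells numbered 12 to 45, so that the sign changed with the cells used.

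Ocm stood first among autosomal genes by a wide margin, both in CPM and per length. Per kilobase of exon, scaled to a sum of 1000000 per cell, its mean level was 110351, against 17116 for Acbd7, an acyl-CoA-binding protein gene, 11912 for Ighm and 10508 for Rn7sk, the RNA that holds back transcription elongation factor P-TEFb. Of the 20 highest genes in CPM, 13 were also among the 20 highest per length. By CPM, Ighm came second at 9999.7, and Skp1a at 7940.2 and Calb1 at 6328 were among the next. All 20 were counted in 48 of 48 cells, and together they took 10.1 to 15.3% of a cell's counts, with a median of 12.6%. In the median cell 421 genes made up the first 50% of counts.

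**Figure D1:**
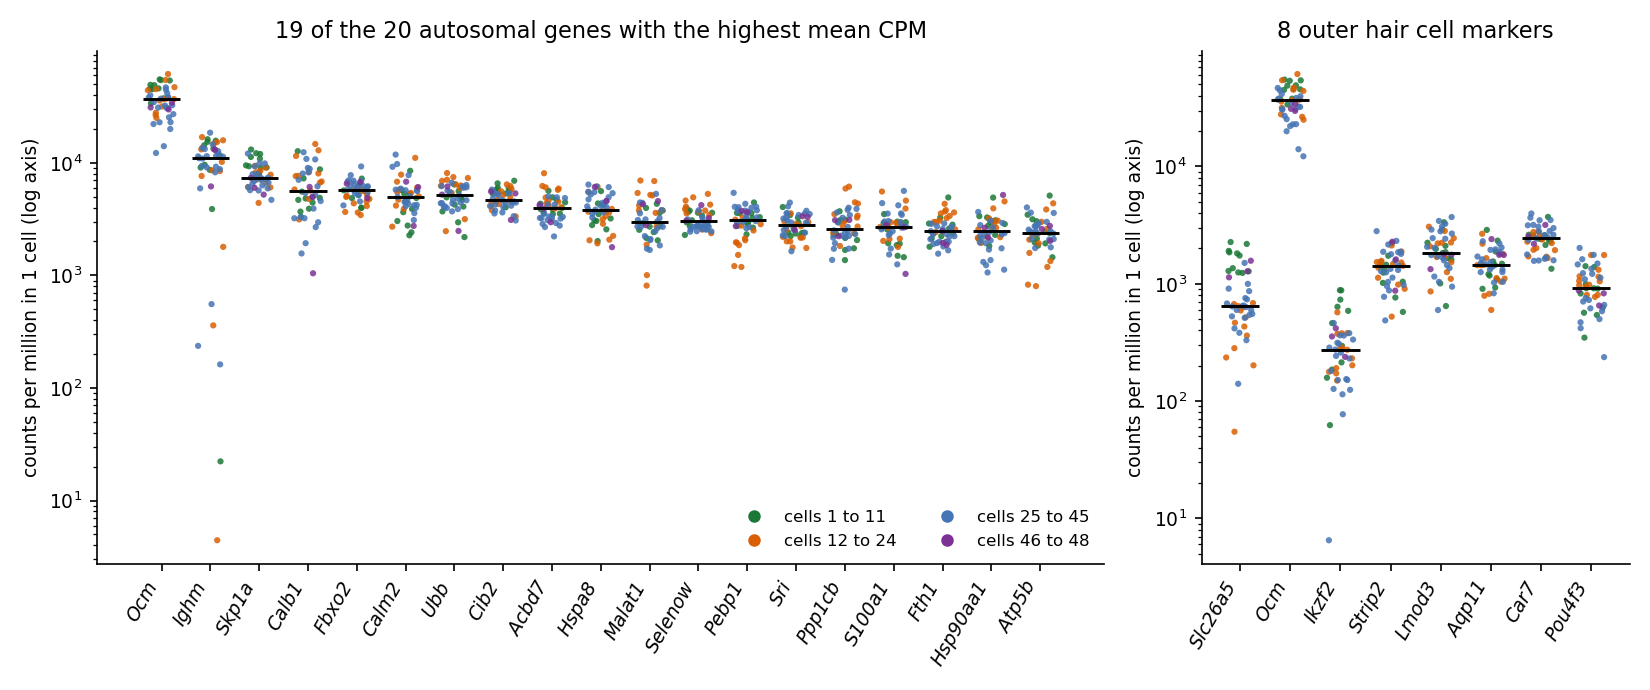
Level in each of the 48 cells (points, CPM on a log axis) of 19 of the 20 highest autosomal genes and, at right, of the 8 markers; bars are medians and colours are runs of cell numbers. Ocm lies between 12218 and 61361 CPM in every cell, Ighm falls below 600 CPM in 6 cells, and Slc26a5 is higher in cells 1 to 11 than in cells 12 to 24.

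Calcium-binding proteins filled many of the highest places. Calm2, a calmodulin gene, averaged 5314 CPM and ranged from 2268 to 11825, and Calm3 averaged 256. Calb1, the buffer calbindin, ranged from 1044 to 14679 CPM with a median of 5602; apart from Ighm, no other gene of the 20 had so large a ratio of highest to lowest cell. Sri, the calcium sensor sorcin, held 1638 to 4428 CPM and S100a1 held 1031 to 5629. Pvalb, parvalbumin, averaged 1832 CPM, and Atp2b2, the plasma membrane calcium pump of the hair bundle, averaged 589. Of 15 genes listed as calcium buffers, sensors and pumps, 13 had a mean of 20 CPM or more and 9 were counted in every cell. Over all genes of 20 CPM or more, 16.1% were counted in every cell. That share rose with level, to 73.9% at 200 to 500 CPM and 98.2% at 500 to 1000 CPM. The 9 genes averaged 242 CPM or more, so their presence in every cell was common for such levels.

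The other high genes had varied roles. Skp1a and Fbxo2, the core and a sugar-recognising F-box subunit of SCF ubiquitin ligases, averaged 7940.2 and 5620.3 CPM. Ubb, a polyubiquitin gene, averaged 5124 CPM, and the chaperone genes Hspa8 and Hsp90aa1 averaged 4002 and 2578. Every cell thus held these transcripts at over 1000 CPM each, Hsp90aa1 being lowest at 1061. Cib2, which binds the mechanotransduction channel proteins, averaged 4839.6 CPM, the nuclear RNA Malat1 3289.5, the selenoprotein gene Selenow 3211, Pebp1 3101, the phosphatase subunit gene Ppp1cb 2807, the ferritin gene Fth1 2608 and the ATP synthase gene Atp5b 2478. Cib2 exons overlap the opposite-strand gene Sh2d7. Mitochondrially encoded genes were kept out of the ranking; mt-Cytb, a complex III subunit, averaged 16810.3 CPM. The complex IV gene mt-Co2 differed between runs of cells: it held 33.5 to 83.6 CPM in cells 1 to 11, 100.1 to 111 in cells 46 to 48, 229 to 395 in cells 12 to 24 and 256 to 644 in cells 25 to 45. Its mean over all cells, 261 CPM, lay above every cell of the runs 1 to 11 and 46 to 48. Another complex IV gene, mt-Co1, averaged 12157 CPM, and the reason for so wide a gap between genes of the same complex was not tested. The genes mt-Co3, mt-Atp6, mt-Atp8 and mt-Nd4l were likewise lower in cells 1 to 11, with means of 102, 81.9, 11.8 and 1.37 CPM. Their means over all cells were 500, 382, 24.7 and 5.03 CPM. Counting mt-Co2, these 5 of 13 mitochondrially encoded genes listed were singled out after their values were seen. The part of depth in the split was not tested, and the share of all genes split in this way is not given here.

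The second gene, Ighm, which encodes the constant region of the immunoglobulin M heavy chain (chromosome 12, 113418558 to 113422730, minus strand), was high in most cells and very low in a few. In 40 cells it was at 5000 CPM or more, in 2 cells at 1793 and 3883 CPM, and in 6 cells at 4.44, 22.3, 162, 237, 360 and 556 CPM; the limits were set after the values were seen. The 6 low cells came from cells 7, 15, 23, 32, 40 and 42, so they were spread over 3 of the 4 runs. Even the lowest held 35 counts. Ocm in these 6 cells was 34589 to 61361 CPM, inside the range of the others except for cell 15, which was the highest of all. Other B-lymphocyte genes did not accompany it: Igkc, Iglc1, Iglc2, Iglc3, Jchain and Pax5 had no count in any of the 48 cells. By an approximate limit of 3 in 48, not the exact interval used for the markers, this allows a share of cells with a count of up to 6.25%. Cd79a was counted in 2 cells and Cd79b, Ms4a1 and Ptprc in 1 cell each. Ighd, the neighbouring constant region, was counted in 18 cells with a mean of 9.58 CPM. No exon of another annotated gene overlaps Ighm.

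**Figure D2:**
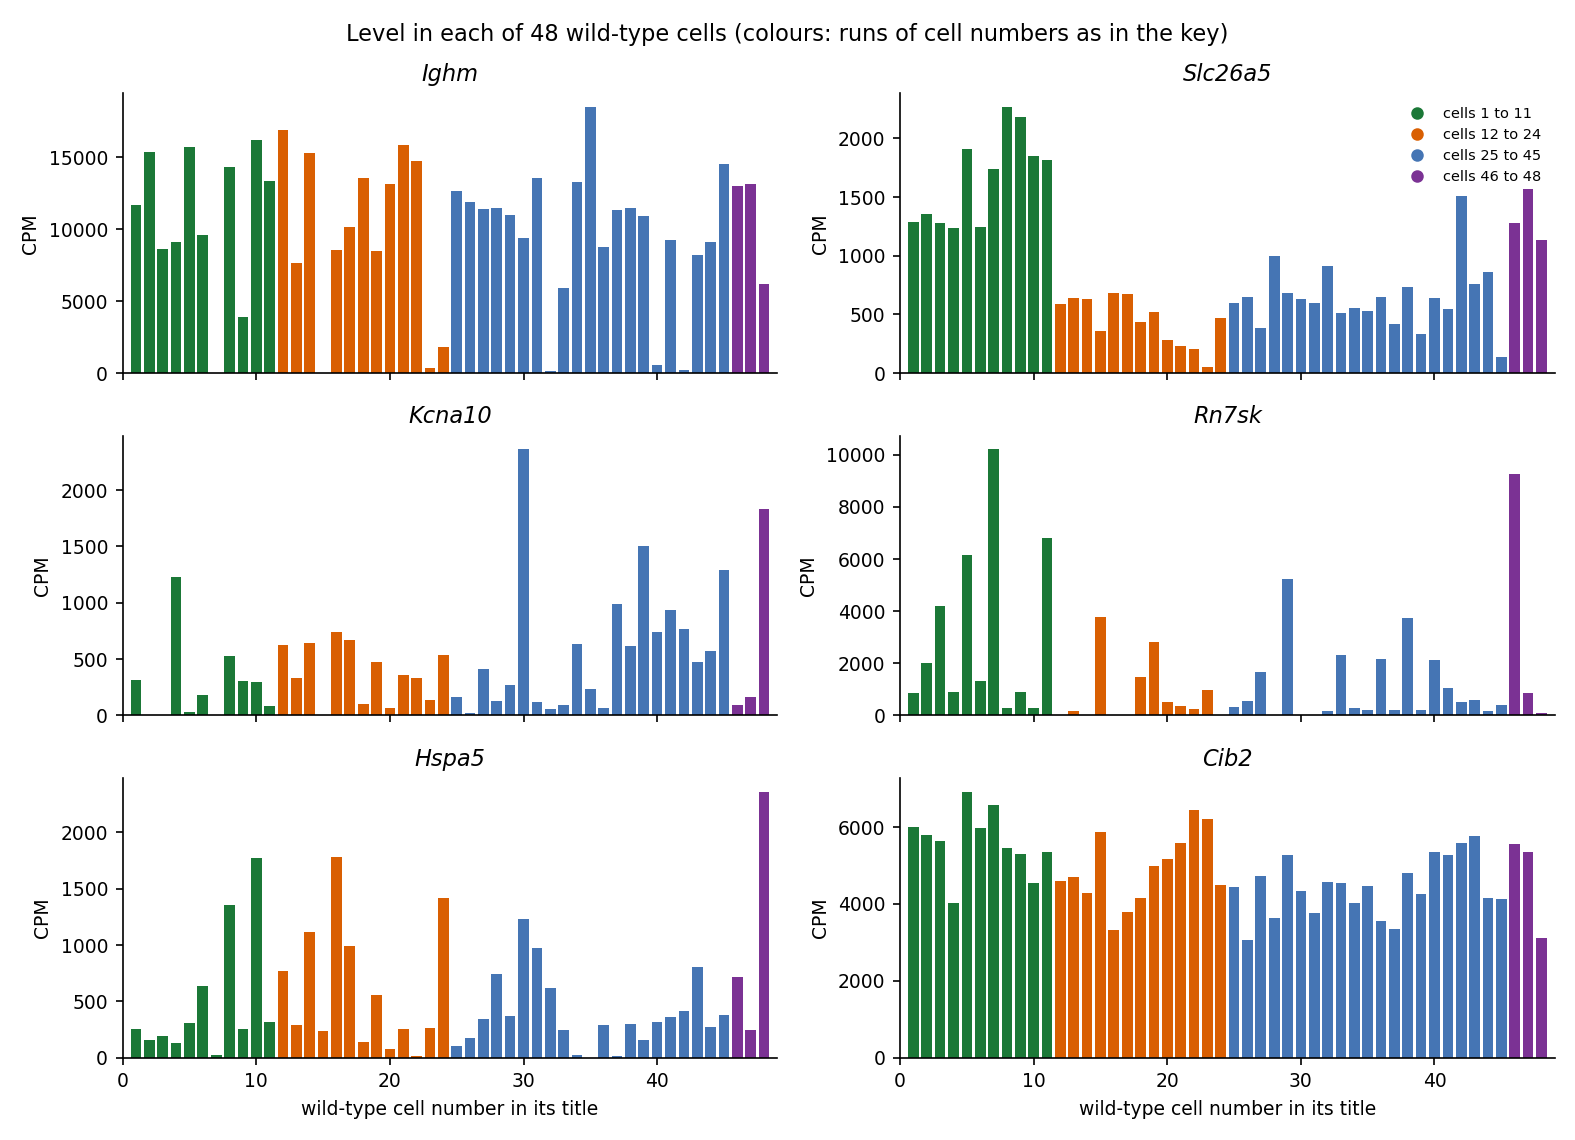
Level of 6 genes in each wild-type cell (bars, CPM from 0), ordered by the number in the cell's title and coloured by run. Ighm is near 0 in scattered cells, Slc26a5 is higher in cells 1 to 11 and 46 to 48 than in cells 12 to 24, Kcna10, Rn7sk and Hspa5 vary widely from cell to cell, and Cib2 stays between 3073 and 6922 CPM.

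Most genes were counted in some cells and not in others. Of 55292 gene symbols, 31773 had no count in any wild-type cell, 23519 were counted in at least 1 cell, 6764 in 24 cells or more and 1178 in every cell, while 5375 were counted in 1 cell only. Requiring 10 counts lowered the number present in every cell to 713, and thinning each cell to 7000000 counts lowered it to 1049. A total of 6375 genes had a mean of 20 CPM or more, and they took 93.5 to 96.2% of each cell's counts. Of these, 1026 were counted in every cell and 888 had no count in at least 24 cells; where those 888 were counted, their median level was 46.2 CPM. Just inside the 20 CPM limit were Utrn, Lrrc73 and Rnf214, each at 20.0 CPM and counted in 27, 38 and 24 cells, and just outside it were Dck, Tmem245 and Fbxo36, at 15, 19 and 18 cells. Genes counted per cell followed the total, with a Spearman rho of 0.55 over 48 cells and 0.59 over cells 12 to 45.

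**Figure D3:**
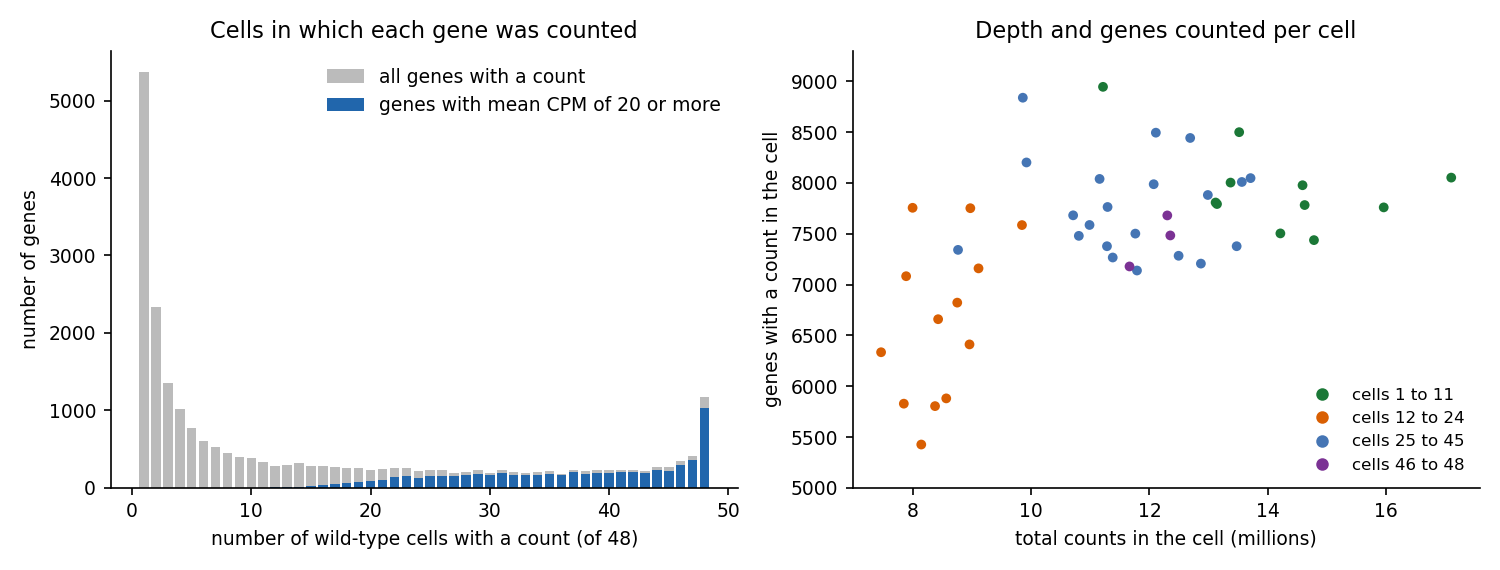
Left, number of genes by the number of wild-type cells in which they were counted, with genes of 20 CPM or more in blue; 1178 genes stand at 48 cells and 5375 at 1 cell. Right, genes counted against total counts for each cell, coloured by run; the vertical axis starts at 5000, and cells 12 to 24 have the fewest genes at the lowest totals.

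Several genes used as references in other tissues had no count in many of these cells. B2m, the light chain of MHC class I, was counted in 6 cells with a mean of 1.27 CPM. Pgk1, a glycolytic enzyme gene, was counted in 15 cells at a mean of 19.2 CPM, Hprt in 24 cells at 34.6 CPM and Tbp in 26 cells at 25.5 CPM. All genes at 20 to 50 CPM were counted in a median of 28 cells, and 1.14% of them in every cell. Hprt and Tbp were thus near the median for their level. Gapdh, Eef1a1 and Ppia were counted in every cell, at 773, 1874 and 1185 CPM. Actg1, gamma-actin, had a level per length of 1003 and Actb, beta-actin, 144. Of 20 such genes, 18 had a mean of 20 CPM or more and 14 were counted in every cell.

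Spread was measured by the coefficient of variation (CV), the SD of CPM over the 48 cells divided by its mean. Over 6375 genes the median CV was 1.22 and the quartiles were 0.849 and 1.60; 402 genes had a CV under 0.5 and 528 over 2. The CV fell with level: its median was 1.67 for 2725 genes at 20 to 50 CPM and 0.331 for 90 genes at 1000 CPM or more. Read counting alone would give median CVs of 0.0536 and 0.00731 at these levels. Loss of molecules before amplification was not measured, since the cDNA carried no molecular identifiers.

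The most even autosomal gene was Cib2, with a CV of 0.195. Every cell held 3073 to 6922 CPM of it. Fbxo2 followed at 0.205, Selenow at 0.218, Myl6, a myosin light chain gene, at 0.224, Sri at 0.231 and Mlf2 at 0.235. Next came 4 genes of mitochondrial proteins: Atp5j of the ATP synthase at 0.236, Chchd2 at 0.238, Cox6a1 of complex IV at 0.243 and Uqcr11 of complex III at 0.246. Ftl1, the ferritin light chain, was also among the 12, at 0.250. All 12 averaged 1060 CPM or more and 5 were among the 20 highest genes. Symbols of respiratory chain and ATP synthase subunits (Nduf, Sdh, Uqcr, Cox, Atp5) made up 27 of the 100 most even genes, 0 of the 100 least even and 84 of all 5960 ranked. The 100 most even had a median mean of 1027 CPM against 60.3 CPM for all ranked. Without cells 12 to 24, a choice added after seeing the data, Cib2 had a CV of 0.199 and Fbxo2 0.179. The first place changed with scaling and cells. Fbxo2 held it with edgeR scaling factors, Uqcr11 with DESeq2 factors and Selenow without cells 12 to 24, while Cib2 stayed among the 12. The list of the 12 lowest CVs follows level closely, and measured against genes of like mean 0 of its 12 genes were among the 12 most even.

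The 12 genes with the highest CV lay at the other end of the level scale, with means of 20.2 to 32.5 CPM. Fads6, a gene of the fatty acid desaturase family, had a CV of 4.07: it was counted in 24 cells, its median was 0.0429 CPM and cell 23 held 561 CPM, or 57.8% of its sum. Dgki, diacylglycerol kinase iota, had a CV of 3.83 and was counted in 9 cells, 7 of them among cells 12 to 24. Pkhd1l1, which encodes a fibrocystin-like coat protein of hair bundles, had a CV of 3.65 and was counted in 17 cells, with 505 CPM in cell 21. These 3 genes each owed over 50% of their sum to 1 cell. The others were Zfp141, Zkscan1, Zfp40, Lrp3, Msh6, Mon1a, Rubcn, Gabpb1 and Lims1, down to a CV of 2.98, and 11 of the 12 were counted in under 24 cells. Fads6, Zfp40 and Rubcn left the 12 with edgeR scaling factors, and the same genes and Gabpb1 left with DESeq2 factors. Zinc-finger symbols (Zfp, Zkscan, Zbtb, Zscan, Znf) made up 13 of the 100 least even genes, 0 of the 100 most even and 133 of 5960. The 100 least even had a median mean of 22.9 CPM against 60.3 CPM for all ranked genes. The share of such symbols among genes of like level was not measured.

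This end of the ranking depended on cells 12 to 24. Of the 12 genes, 10 were highest in 1 of these 13 cells, which are 27.1% of the cells, while 43.03% of all 6375 genes peaked there; of the 100 least even genes, 56 did. Without these cells Msh6 was the only one of the 12 still in the set, Fads6 averaged 8.35 CPM and Pkhd1l1 8.28 CPM, under the 20 CPM limit. A limit of 10 CPM left 0 of the 12, and a limit of 50 CPM lies above the means of all 12. The part of depth and of the fewer genes counted in cells 12 to 24 was not tested.

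**Figure D4:**
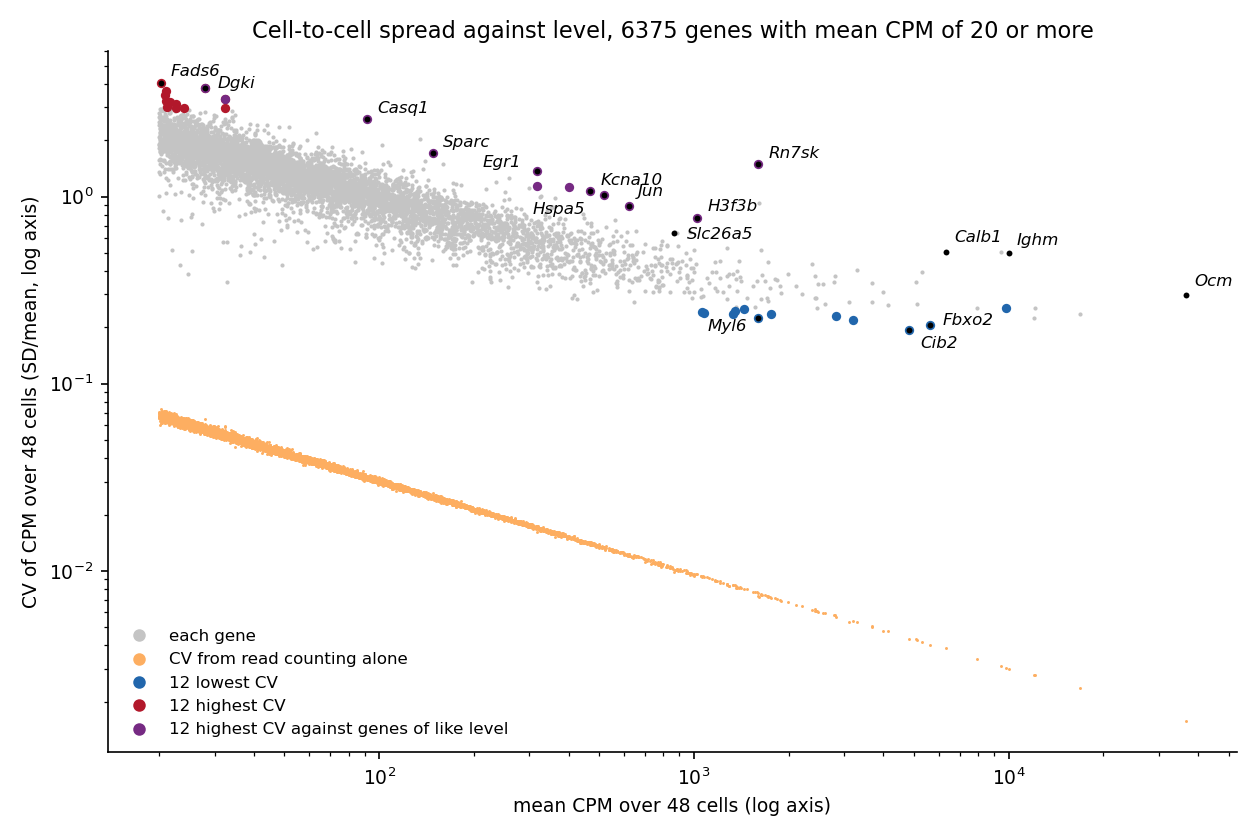
CV against mean CPM for 6375 genes (grey, both axes log) and the CV that read counting alone would give (orange). The 12 lowest CVs (blue) lie at 1060 CPM or more, the 12 highest (red) at 20.2 to 32.5 CPM, and the genes most spread for their level (purple) along the upper edge of the cloud, with Rn7sk at 1596 CPM and a CV of 1.49.

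Because CV falls with level, each gene's log2 CV was also set against the median log2 CV of the 200 genes nearest to it in mean. Rn7sk then stood first, 1.99 above genes of like level: it was counted in 47 cells at 0 CPM in the lowest, 539 in the median and 10218 in the highest, cell 7. Casq1, calsequestrin, was 1.31 above, at 0 CPM in the median cell and 1048 CPM in cell 47, and its exons overlap Gm17224 on the opposite strand. Egr1, an immediate early transcription factor gene, was 1.27 above, with a median of 158 CPM and a highest cell of 2067. In all 3 the median cell lay far below the highest cell.

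Among genes counted in every cell, Hspa5, the endoplasmic reticulum chaperone BiP, was 1.14 above genes of like level, running from 0.240 CPM through a median of 306 to 2361 in cell 48. Kcna10, a voltage-gated potassium channel gene known in hair cells, was 1.14 above and ran from 0.127 through 322 to 2363 CPM in cell 30. H3f3b, a histone H3.3 gene, was 1.04 above at 185 to 3886 CPM, and Jun, whose exons overlap the opposite-strand Junos, 1.03 above at 0.163 to 2191 CPM. Hsd11b1, Dgki, Sparc, Zkscan1 and Limd2 made up the rest of the 12. This set was named after its values were seen. Of the 12, 3 were highest in cells 12 to 24, and 10 were in the set again without those cells.

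The windows around the RefSeq starts of 4 of these genes (GRCm38.p6, 250 bases before to 50 after the start) are shown. They are those of Cib2, which had the lowest CV of CPM, the gene that drives the reporter and 2 of the least even for their level. Each reads 5′ to 3′ on the gene's strand, and capitals mark every CG. They start at Cib2 chr9:54560141-54560440 (minus strand), Slc26a5 chr5:21865555-21865854 (minus), Hspa5 chr2:34771840-34772139 (plus) and Kcna10 chr3:107182893-107183192 (plus), and the RefSeq starts lie 28, 0, 120 and 87 bases from the gene starts of GENCODE.
Cib2: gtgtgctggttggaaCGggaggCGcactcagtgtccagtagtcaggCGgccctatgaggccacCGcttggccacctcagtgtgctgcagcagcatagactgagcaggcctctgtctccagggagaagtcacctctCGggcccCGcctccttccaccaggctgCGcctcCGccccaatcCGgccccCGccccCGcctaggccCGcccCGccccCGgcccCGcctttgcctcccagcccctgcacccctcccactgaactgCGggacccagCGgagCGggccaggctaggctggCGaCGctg
Slc26a5: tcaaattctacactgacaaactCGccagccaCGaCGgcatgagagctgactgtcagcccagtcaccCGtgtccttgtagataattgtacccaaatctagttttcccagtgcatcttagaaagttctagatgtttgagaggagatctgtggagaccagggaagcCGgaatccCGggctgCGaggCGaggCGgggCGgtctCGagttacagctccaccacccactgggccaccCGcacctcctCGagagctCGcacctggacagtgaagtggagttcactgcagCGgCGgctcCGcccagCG
Hspa5: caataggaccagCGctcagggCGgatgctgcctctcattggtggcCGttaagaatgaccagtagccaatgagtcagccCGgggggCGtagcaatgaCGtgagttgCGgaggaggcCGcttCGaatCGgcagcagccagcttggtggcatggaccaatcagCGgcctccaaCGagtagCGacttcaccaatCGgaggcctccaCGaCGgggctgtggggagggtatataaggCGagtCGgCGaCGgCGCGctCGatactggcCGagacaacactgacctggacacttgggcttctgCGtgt
Kcna10: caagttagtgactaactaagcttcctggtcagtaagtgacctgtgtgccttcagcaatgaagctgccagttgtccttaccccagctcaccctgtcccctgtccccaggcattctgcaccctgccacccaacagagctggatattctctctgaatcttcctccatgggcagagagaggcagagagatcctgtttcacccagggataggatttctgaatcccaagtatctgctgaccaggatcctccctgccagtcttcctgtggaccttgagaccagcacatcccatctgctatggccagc
Cib2 holds 20 CG, Slc26a5 18, Hspa5 25 and Kcna10 none; CG reads the same on both strands. Of 27025 windows of this length, 5.77% hold no CG and the median is 7, and over the ranked genes with a window (4897 of 5960) the median is 23. The word TATAAA, on either strand, was in none of the 4 and in 14.2% of all windows. Only this exact word was searched, and the Hspa5 window holds the near variant TATATAAG. A comparison of windows between even and uneven genes was void, since 75 of the 100 least even genes had a window, under the 80% needed. Exon length could be compared: its median was 2259 bases for the 100 most even genes (97 with a length), 4753 for the 100 least even (99) and 4713 for all ranked genes (5893). For the 100 genes with the highest mean CPM it was 2562.5 (98), so this comparison does not separate evenness from level.

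Genes of hair cell function were next described by their role. For mechanotransduction, Lhfpl5 and Tmc1, subunits of the channel complex, averaged 1273 and 1141 CPM and were counted in every cell. Ush1c, harmonin, averaged 297 CPM and Tomt, which is needed to bring the channel to the bundle, 129 CPM at a spread -0.85 on the log2 scale from genes of like level. The tip-link cadherin genes Cdh23 and Pcdh15 were counted in 47 and 40 cells. Tmc2 and Cib3 had no count in any cell, which by the same approximate limit of 3 in 48 allows a share of up to 6.25%. Of 17 genes listed, 12 averaged 20 CPM or more and 6 were counted in every cell.

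The listed hair bundle genes were counted in a median of 48 cells. Myo6, the minus-end-directed myosin at the base of the bundle, averaged 1630.2 CPM and Espn, which bundles stereocilia actin, 961, each in 48 cells. Grxcr2 averaged 768 CPM, Pls1, plastin 1, 488 and Myo7a 256. Pls3, plastin 3, had no count, and Eps8, a regulator of stereocilia length, was counted in 27 cells at 27.8 CPM. Of 25 genes listed, 21 averaged 20 CPM or more and 14 were counted in every cell. In the cortical lattice under the side wall, the spectrin genes Sptb and Sptbn1 averaged 347 and 178 CPM, and 8 of 11 genes reached 20 CPM.

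For the efferent synapse, the acetylcholine receptor subunit genes Chrna9 and Chrna10 averaged 628 and 241 CPM, and Kcnn2, the SK2 potassium channel that follows them, 389 CPM with at least 81.9 in every cell. At the afferent synapse, the calcium sensor gene Cabp2 averaged 755 CPM, Rab3ip 699, Rab3a 304 and Cacna1d, the presynaptic calcium channel, 208. The receptor and SK2 genes were thus counted in 47 or 48 cells.

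Transcription factors ranged from genes in every cell to genes in a handful. Besides Pou4f3, Rorb averaged 393 CPM and Gata3 382, each in 48 cells, Isl1 averaged 229 CPM in 46 cells and Gfi1 166 in 47. Atoh1, which starts hair cell differentiation, was counted in 5 cells, Bcl11b in 6 and Zeb1 in 2. Of 20 listed, 16 averaged 20 CPM or more and 6 were counted in every cell.

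Among lists with 3 or more members at 20 CPM or above, set against genes of like level, ribosomal protein genes had the lowest CVs, at a median of -0.34 log2 units over 27 members, followed by mitochondrially encoded genes at -0.32 over 12, broadly expressed reference genes at -0.28 over 18 and respiratory chain genes at -0.18 over 28. The highest median was that of the inner hair cell markers, at 0.46 over 3 members. Immediate early and dissociation genes had a median of 0.30 over 10 members: Jun averaged 623 CPM, Egr1 317, Junb 108 and Hspa1b, an inducible heat shock gene, 102, and 8 of the 10 were above genes of like level. Ribbon synapse genes lay at 0.19 over 11 and bundle genes at 0.09 over 21. The marker list lay at -0.03 over 8.

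**Figure D5:**
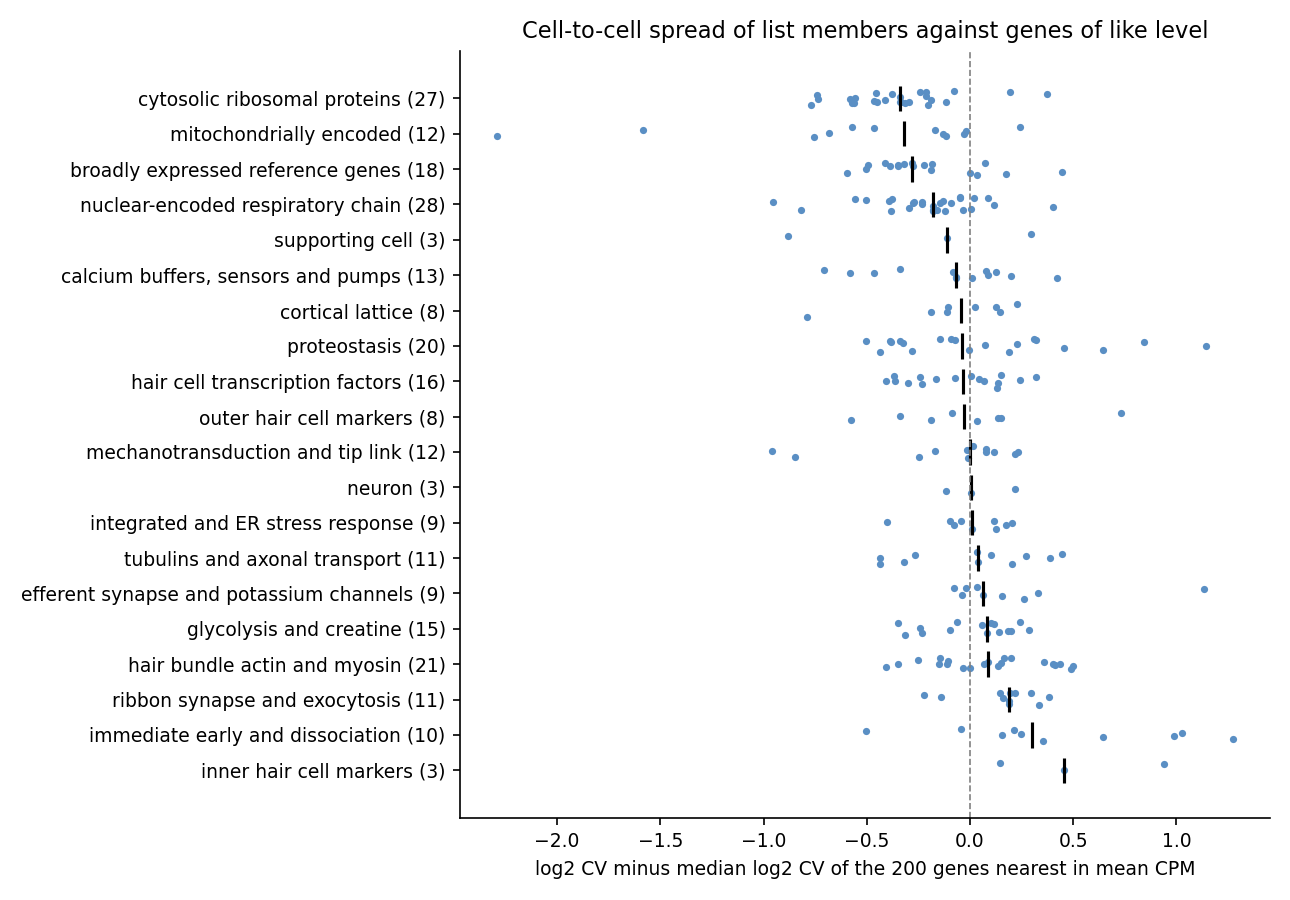
For each gene list, the log2 CV of each member with 20 CPM or more (points), less the median of the 200 genes nearest in mean; black bars are list medians, the dashed line is 0, and numbers in brackets count members. Ribosomal protein genes lie mostly to the left at a median of -0.34, and immediate early genes mostly to the right at 0.30.

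Genes that mark other cochlear cells were low, with exceptions named here. Of 10 inner hair cell markers, Calb2, calretinin, was counted in every cell at 86.0 to 3428 CPM. Otof, otoferlin, was counted in 42 cells with a median of 71.9 CPM and a highest cell of 1036, and Atp2a3, a calcium pump gene, in 30 cells with a mean of 40.4 CPM. Slc17a8, whose product loads glutamate into vesicles, was counted in 14 cells at a mean of 11.3 CPM, Tbx2, the inner hair cell factor, in 1 cell and Rprm in none. Of 14 supporting cell genes, Fbxo2 and S100a1 were high in every cell; the other 12 summed to 0.178 CPM in the lowest cell, 45.03 in the median and 609 in cell 33, the highest. Among those 12, Jag1 was counted in 42 cells, Fgfr3 in 30, Gjb2 in 10, Sox9 and Gjb6 in 9 each, Hes1 in 6 and Slc1a3 in none.

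Summed levels of the neuronal list ran from 0 to 897 CPM with a median of 237, most of it from Snap25 at 183 CPM in 47 cells; Nefm and Nefl were counted in 33 and 25 cells, and Prph and Gap43 in none. The glial list ran from 0 to 459 CPM, most of it Cnp in 41 cells, while Pmp22 and Mag were counted in none. Of 10 macrophage genes, C1qb was counted in 13 cells and C1qa, Cx3cr1, Fcer1g and Lyz2 in none. Of 8 mesenchymal genes, Col1a1 and Pdgfra were each counted in 29 cells and Lum in 5, with 544 CPM in cell 32. Egfl7 was counted in 42 cells, the other endothelial genes Pecam1 and Flt1 in 8 and 7, and Cdh5 and Cldn5 in none. Dct, a pigment cell gene, was counted in 21 cells at no more than 4.63 CPM, and the haemoglobin genes Hba-a1 and Hba-a2 in 6 and 5. The part of these transcripts in the spread of other genes was not tested.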

How the data were processed

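The authors deposited raw counts per gene, 1 column per cell. The submitters' processing notes name HISAT2 2.2.1, StringTie 2.2.1, featureCounts 2.0.1 and build mm10; the annotation release, strand setting and filters were not given in the sources used here. From the deposited counts, CPM was computed per cell over the whole column, then its mean, range, CV and the share of cells with at least 1 count. Exon lengths, chromosomes and overlaps came from GENCODE M21, in which 53292 of 55292 symbols matched; promoter windows came from RefSeq on GRCm38.p6. Named genes were the 8 markers, the 20 autosomal genes with the highest mean, the 12 with the lowest and the 12 with the highest CV among those at 20 CPM or more, and members of 26 gene lists; unnamed, predicted and pseudogene symbols were passed over (1 among the highest CVs, and for the sets relative to level 14 among the most even and 2 among the least even). The members and lists were chosen with earlier results of these data known. Some members of these sets and lists are not reported here. CV and its form relative to genes of like level were checked on simulated counts in which some genes were given a raised CV. The simulation held no loss of molecules and no runs of cells, and the order by mean level was not checked with it. Python 3.11.15, numpy 2.4.6, pandas 2.3.3 and, for scaling factors in alternatives, edgeR 4.0.16 and DESeq2 1.42.0 in R 4.3.3 were used.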

Additional observations from a re-analysis of the deposited data

How the results depend on the processing

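No paired analysis was possible because 1 group was described and no test was made. Of the 20 highest genes, 17 to 20 were shared under other scaling factors, thinning and choices of cells, except per kilobase of exon, with 13. Of the 12 genes with the highest CV, 7 were shared with cells 12 to 45, 0 with cells 1 to 11, 1 without cells 12 to 24 (added after seeing the data), 5 by Gini coefficient, 2 by CV against genes of like mean, 0 with a limit of 10 CPM or of 50 CPM, and 3 without each gene's highest cell. Of the 12 with the lowest CV, 5 were shared with cells 1 to 11, 6 by median absolute deviation over median and 0 by CV against genes of like mean. Of the 12 least even for their level, 7 were shared with cells 12 to 45, 6 with cells 1 to 11 and 10 to 12 otherwise. Genes counted in every cell numbered 2517 over cells 1 to 11, where fewer cells are asked for, and 713 at 10 counts. Of 427 named or listed genes, the means of 8 moved by over 1 SD, all in cells 1 to 11: Slc26a5 (1653 CPM), Skp1a (10211), mt-Atp6 (81.9), mt-Atp8 (11.8), mt-Co2 (56.9), mt-Co3 (102), mt-Nd4l (1.37) and Ftl1-ps1 (11); the cause was not tested. Depth limits statements on genes near 1 count in a cell, and with no molecular identifiers intervals cover counting error only.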

Other observations

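The pseudogenes Ftl1-ps1, Tpt1-ps3 and Oaz1-ps were present in every cell at a low level. Ftl1-ps1 averaged 23.3 CPM with a CV of 0.432, at a median of 1.60% of the level of its parent gene Ftl1 in the same cell. Tpt1-ps3 averaged 36.03 CPM, 3.02% of Tpt1, and Oaz1-ps averaged 21.9 CPM, 2.24% of Oaz1. Over cells 1 to 11 alone, Ftl1-ps1 averaged 11 CPM. For their level these 3 were more even than genes of like mean by 2.16, 1.70 and 1.93 on the log2 scale. Reads shared with a near-identical parent cannot be told apart from reads of the copy in these counts.

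Among genes most even for their level, with 14 predicted or pseudogene symbols passed over, were Etfb (21.3 CPM, 47 cells), Scand1 (42.03 CPM, 47 cells), Ost4 (83.8 CPM, 48 cells), Dynlt1b (63.6 CPM, 47 cells), Lsm7 (102 CPM, 47 cells) and Polr2j (96.7 CPM, 48 cells). The other 6 of the 12 were Ubxn6, Sp3os, Mapk8ip1, Polr3gl, Mien1 and Pigbos1. The 100 most even for their level had a median exon length of 2021 bases against 4485 for the 100 least even for their level.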
